A study of Rattus norvegicus with 9 samples.

Results

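The genes described here encode 10 receptors through which gut hormones, fatty acids, nerves and neighbouring islet cells adjust hormone release: Glp1r, Gipr, Gcgr, Ffar1, Chrm3, Adra2a, Sstr1, Sstr2, Sstr3 and Sstr5. They were chosen by name, with earlier results of these data known, and no measured value enters the choice of genes. A gene was represented by the probe sets whose annotation gives its symbol alone, 14 probe sets of 31042, and for each gene the one with the highest mean over the 9 arrays was taken as its main probe set. Ffar1 has no probe set with that symbol in the annotation used here, so 9 of the 10 members have values, out of 14217 genes named in all. The signal of the Sstr1 probe sets lay below the filter on low signals, so 8 members were tested.

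Islet RNA came from 5 rats on a cafeteria diet with 66% of calories as fat and from 4 rats on standard chow with 8%, both for 30 days. All were male Wistar rats, 7 weeks old before the diets began and caged singly, and their pancreatic islets were freed with collagenase and picked by hand. Each array carried RNA described as an independent biological replicate, and the design names 1 more chow array, not analysed here. Diets were read from the sample titles. A separate diet entry contradicts the title of each of the 9 samples, and going by that entry would reverse each sign reported here.

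All members are G protein-coupled receptors, membrane proteins that pass a signal to a heterotrimeric G protein inside the cell. Receptors for the incretins and for glucagon couple to Gs, which raises cyclic AMP and strengthens glucose-stimulated insulin release. Fatty acid and muscarinic receptors couple to Gq, which releases calcium from internal stores, whereas the adrenergic and somatostatin receptors couple to Gi, which lowers cyclic AMP and restrains release. Cyclic AMP acts on genes through factors of the CREB family, which bind the cAMP response element (CRE).

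The arrays differed in RNA quality and in the signal of cell type markers. The ratio of the 3′ to the 5′ beta-actin probe set climbs as RNA is degraded or incompletely copied. It lay between 2.79 and 5.63 in cafeteria arrays and between 3.00 and 4.84 in standard arrays, with cafeteria replicate 3 highest of all. The same ratio for GAPDH lay between 1.29 and 1.62 in cafeteria arrays and between 1.30 and 1.64 in standard arrays. That ratio was highest in standard replicate 1 and did not single out cafeteria replicate 3, which had 1.53. The beta cell markers had 10 of 15 genes named, and their summed signal spanned 170759 to 228770 in cafeteria and 159072 to 212820 in standard islets. The summed signal of 12 macrophage markers was 4745 to 8096 in cafeteria islets and 8288 to 15358 in standard islets, so those ranges did not overlap, and standard replicate 3 was highest. Of these markers 10 were tested, and 10 had a negative log2 difference (median -0.60), 6 of them with an unadjusted p under 0.05, though none passed after adjustment. For 9 lymphocyte markers the sum was 591 to 775 in cafeteria and 759 to 3940 in standard islets, with standard replicate 3 again highest. Of 3 tested, 3 were negative (median -0.75), 1 with an unadjusted p under 0.05. Of 8 endothelial markers tested, 2 were positive and 6 negative (median -0.30), 1 negative with an unadjusted p under 0.05. None of either list passed after adjustment. For 12 acinar markers the sum was 2893 to 10318 in cafeteria and 3748 to 9544 in standard islets. Of 11 acinar markers tested, 10 had a positive log2 difference (median 0.49), and 2 had an unadjusted p under 0.05. The sum of 8 alpha cell markers was 58558 to 75370 in cafeteria and 52489 to 78088 in standard islets. All 8 were tested, 2 positive and 6 negative (median -0.13). For 5 delta and PP cell markers the sum was 49607 to 87685 in cafeteria and 65008.5 to 89651 in standard islets. Of 4 tested, 4 were negative (median -0.18), 1 with an unadjusted p under 0.05, and none passed after adjustment. Of 10 beta cell markers tested, 6 were positive and 4 negative (median 0.09). The part of these cell types in the receptor values was not tested. In RNA from whole islets, fewer cells of a type and less RNA per cell cannot be told apart.

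None of the receptors passed the test for a diet difference. Signals were compared as log2(signal + 16) in limma, with Benjamini-Hochberg adjustment over 18625 probe sets, and a call needed an adjusted p under 0.05. That threshold was met by 0 of 8 members, and by 0.0% of all probe sets tested. At an unadjusted p under 0.05 there were again 0 of 8 members, against 5.8% of all probe sets (1080), of which 2.79% were lower and 3.01% higher in cafeteria islets. The members' adjusted p-values ran from 0.839 to 0.999. The groups overlapped for each of the 14 probe sets, while 1.76% of all probe sets had groups that did not. With 9 arrays, a missed threshold does not show equal expression, so the interval of each difference is given.

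Each probe set below is compared with itself between arrays, since MAS5 signals of different probe sets do not rank genes by level.

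**Figure D1:**
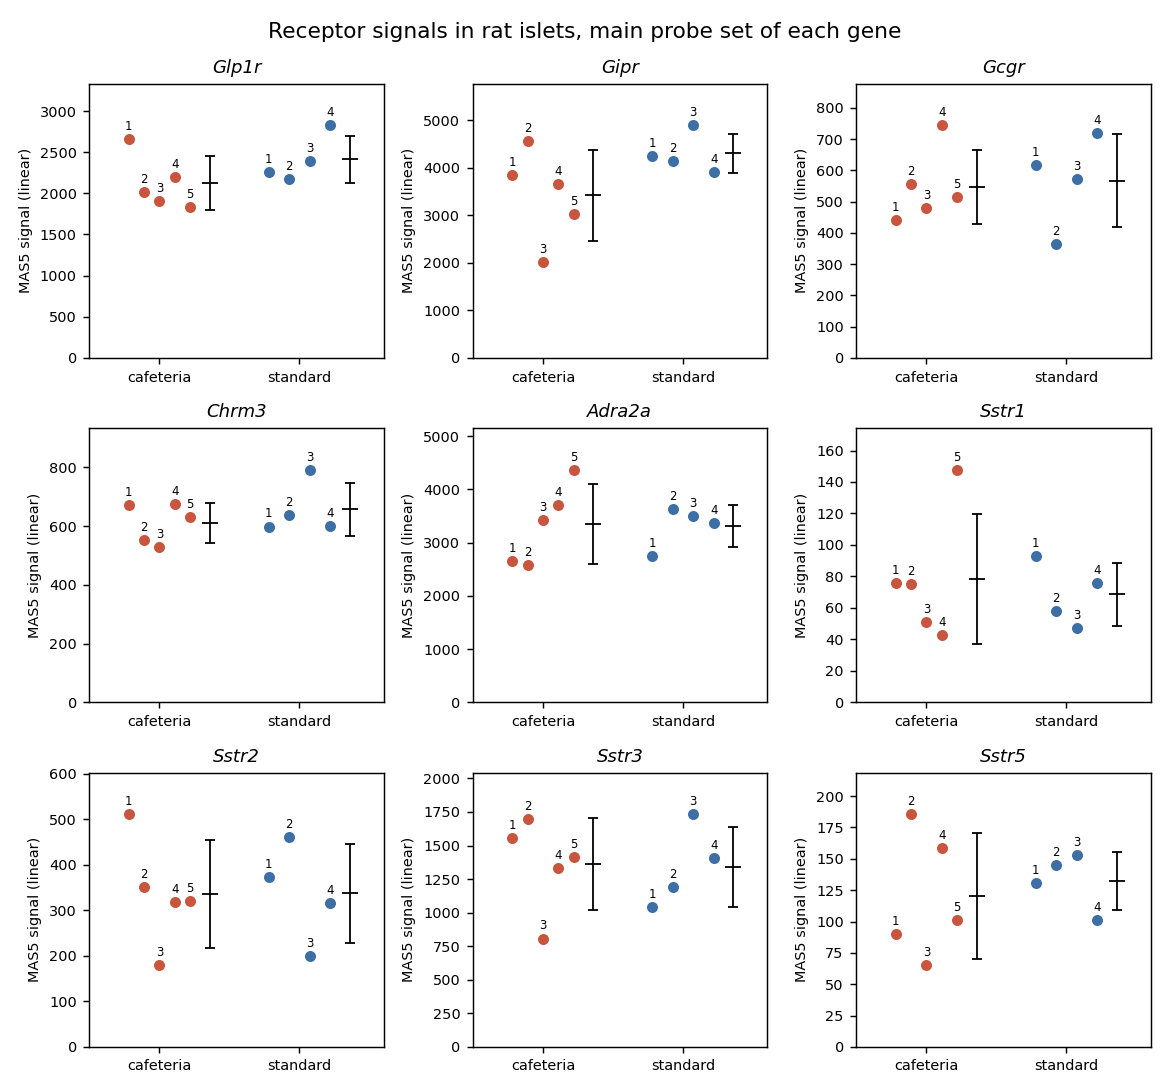
Linear array signal of the main probe set of each of 9 receptor genes in cafeteria (left, 5 arrays) and standard islets (right, 4 arrays); digits give the replicate, and the bar gives mean ± SD. The groups overlap in each panel, and cafeteria replicate 3 is the lowest point for Gipr, Chrm3, Sstr2, Sstr3 and Sstr5.

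Of the incretin receptors, Gipr binds the gut hormone GIP and was the member with the lowest p. Its signals in cafeteria replicates 1 to 5 were 3847, 4558, 2017, 3660 and 3036, against 4253, 4149, 4892 and 3919 in standard replicates 1 to 4. Thus 4 of 5 cafeteria arrays lay below the standard range, with cafeteria replicate 3 far down, and cafeteria replicate 2 lay inside it. The mean signal was 3424 ± 955 in cafeteria islets (SD, n = 5) and 4303 ± 416 in standard islets (SD, n = 4). The log2 difference of cafeteria minus standard was -0.37 ± 0.19 (SE), a fold of 0.771 with a 95% interval of 0.581 to 1.02. In limma the unadjusted p was 0.0687 and the adjusted p 0.839, and an exact two-sided permutation test over all 126 splits gave p = 0.143. Without cafeteria replicate 3, the array of highest beta-actin ratio, the log2 difference was -0.20. It was -0.49 without cafeteria replicate 2. With each array left out in turn it stayed negative.

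Glp1r, the receptor for glucagon-like peptide-1 and the target of incretin drugs, gave signals of 2663, 2018, 1908, 2201 and 1832 in cafeteria replicates 1 to 5. Standard replicates 1 to 4 gave 2261, 2173, 2391 and 2824. Here 3 of 5 cafeteria arrays were below the standard range, and cafeteria replicate 1 stood near the top of all arrays. The mean signal was 2125 ± 331 in cafeteria islets (SD, n = 5) and 2412 ± 289 in standard islets (SD, n = 4). The log2 difference was -0.19 ± 0.13 (SE), a fold of 0.878 with a 95% interval of 0.726 to 1.06 (limma adjusted p = 0.859). It was -0.27 without cafeteria replicate 1 and -0.11 without standard replicate 4.

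Whether the incretin receptors differed in their change was tested within arrays. Gipr minus Glp1r, in log2 signal, was 0.53, 1.17, 0.08, 0.73 and 0.72 in cafeteria replicates 1 to 5, against 0.91, 0.93, 1.03 and 0.47 in standard replicates 1 to 4. The group difference was -0.19, with an exact two-sided permutation p of 0.460. It was -0.05 without cafeteria replicate 3, which had the lowest value of all, so no difference between these receptors was detectable.

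Gcgr, the glucagon receptor, which on beta cells lets glucagon raise insulin release, had signals of 440.1, 557, 481, 744 and 515 in cafeteria replicates 1 to 5. Standard replicates 1 to 4 had 616, 363, 572 and 719. Both groups covered nearly the same span, with the lowest array in standard islets and the highest in cafeteria islets. This gave a log2 difference of -0.03 ± 0.20 (SE), with a 95% interval of -0.46 to 0.40 (limma adjusted p = 0.989).

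The receptors acting through Gq were represented by Chrm3, the muscarinic receptor through which vagal acetylcholine promotes insulin release. Its main probe set gave 670.0, 553, 528, 675 and 629 in cafeteria replicates 1 to 5, against 598, 636, 791 and 601 in standard replicates 1 to 4. Standard replicate 3 stood above all other arrays, and 2 of 5 cafeteria arrays lay below the standard range. For this probe set the log2 difference was -0.10 ± 0.13 (SE), with a 95% interval of -0.39 to 0.19 (limma adjusted p = 0.927). A dimmer second probe set had 106, 114, 114, 109 and 106 in cafeteria arrays, against 54.6, 118, 118 and 68.0 in standard arrays. The cafeteria arrays were close together and the standard arrays split into a high and a low pair. That probe set had a log2 difference of 0.31 ± 0.24 (SE; limma adjusted p = 0.867), opposite in sign to the main one.

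Among the receptors acting through Gi, Adra2a is the alpha-2A adrenergic receptor, through which sympathetic nerves and adrenaline suppress insulin release. Cafeteria replicates 1 to 5 had signals of 2656, 2584, 3420, 3707 and 4364, against 2750, 3630, 3496 and 3368 in standard replicates 1 to 4. The cafeteria arrays reached both below and above the standard range. Adra2a had a log2 difference of -0.01 ± 0.15 (SE), with a 95% interval of -0.34 to 0.33 (limma adjusted p = 0.997). The second probe set ran from 245 to 538 in cafeteria and from 178 to 655 in standard islets. Its standard deviation within groups was 0.67 on the log2 scale, wider than for 97.1% of the probe sets tested, and its log2 difference was -0.09 ± 0.35 (SE).

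Somatostatin from delta cells acts on the Sstr receptors. Sstr2 restrains glucagon release from rodent alpha cells, and of the members with a promoter window it alone has a complete CRE there. Promoter windows, reaching 250 bases before and 50 after each start, were taken from RefSeq on build GRCr8 and matched 9 members, of which Gcgr has more than 1 window. The 250 bases before the start of Sstr2 and of Glp1r are shown to set the receptor gene that has the element beside that of a receptor which raises cyclic AMP. Capitals mark the CRE letters TGACGTCA, or its core TGACG on either strand; the complete CRE holds the core on both strands.
Sstr2, chr10:99163103-99163352, plus strand: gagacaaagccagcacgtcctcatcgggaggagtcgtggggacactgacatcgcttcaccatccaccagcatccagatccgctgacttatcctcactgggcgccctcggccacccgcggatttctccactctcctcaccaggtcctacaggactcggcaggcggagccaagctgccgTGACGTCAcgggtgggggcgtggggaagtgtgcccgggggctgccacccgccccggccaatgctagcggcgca
Glp1r, chr20:8973143-8973392, plus strand: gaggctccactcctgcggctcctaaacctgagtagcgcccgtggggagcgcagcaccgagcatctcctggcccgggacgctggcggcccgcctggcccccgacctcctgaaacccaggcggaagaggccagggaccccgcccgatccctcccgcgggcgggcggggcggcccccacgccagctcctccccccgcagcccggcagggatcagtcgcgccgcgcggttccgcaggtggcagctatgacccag

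The complete CRE of Sstr2 begins 73 bases before the start, and the stretch of Glp1r holds no core. Of 33469 RefSeq promoter windows, 1.83% hold the complete CRE and 21.2% the core. The core is in 5 of the members' 10 windows, those of Chrm3, Ffar1, Glp1r, Sstr1 and Sstr2, in Glp1r after the start. A match describes the letters and says nothing about binding in islets.

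The main probe set of Sstr2 had signals of 511, 351, 179.9, 318 and 321 in cafeteria replicates 1 to 5, against 373, 460.4, 199 and 317 in standard replicates 1 to 4. One array in each group was low, cafeteria replicate 3 and standard replicate 3. The log2 difference was -0.02 ± 0.28 (SE), with a 95% interval of -0.61 to 0.58 (limma adjusted p = 0.996). Its sign was positive in several other settings, among them quantile and median normalisation. The second probe set ran from 158 to 305 in cafeteria and from 252 to 379 in standard islets, with 3 of 5 cafeteria arrays below the standard range. It had a log2 difference of -0.29 ± 0.20 (SE; limma adjusted p = 0.859). The identifier of that probe set ends in _s_at, which marks probes that can match more than 1 transcript.

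Sstr3, a somatostatin receptor that lies in primary cilia in rodent neurons, had signals of 1553, 1701, 807, 1331 and 1418 in cafeteria replicates 1 to 5. Standard replicates 1 to 4 had 1042, 1191, 1731 and 1405. Apart from cafeteria replicate 3, the cafeteria arrays lay inside the standard range. For Sstr3 the log2 difference was 0.0033 ± 0.20 (SE), with a 95% interval of -0.44 to 0.44 (limma adjusted p = 0.999). Without cafeteria replicate 3 it was 0.18, and with array weights it was -0.02.

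Sstr5, through which somatostatin restrains rodent beta cells, was dim, at the 45.8th percentile of mean signal. Its signals were 89.8, 185, 65.1, 159 and 101 in cafeteria replicates 1 to 5, against 131, 145, 153 and 101 in standard replicates 1 to 4. The cafeteria arrays fell on both sides of the standard range. The log2 difference was -0.19 ± 0.28 (SE), with a 95% interval of -0.79 to 0.41 (limma adjusted p = 0.932), and it was -0.02 without cafeteria replicate 3.

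The 3 probe sets of Sstr1 lay at the 34.5th, 33.8th and 3.12th percentiles of mean signal and were not tested across the table. The brightest gave 76.0, 74.9, 51.3, 43.0 and 148 in cafeteria replicates 1 to 5, against 93.3, 58.2, 47.2 and 75.6 in standard replicates 1 to 4. Cafeteria replicate 5 was the highest array, and the others intermixed (exact two-sided permutation p = 0.810). The log2 difference was 0.10 for this probe set and -0.12 and -0.05 for the others, so they did not share a sign.

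**Figure D2:**
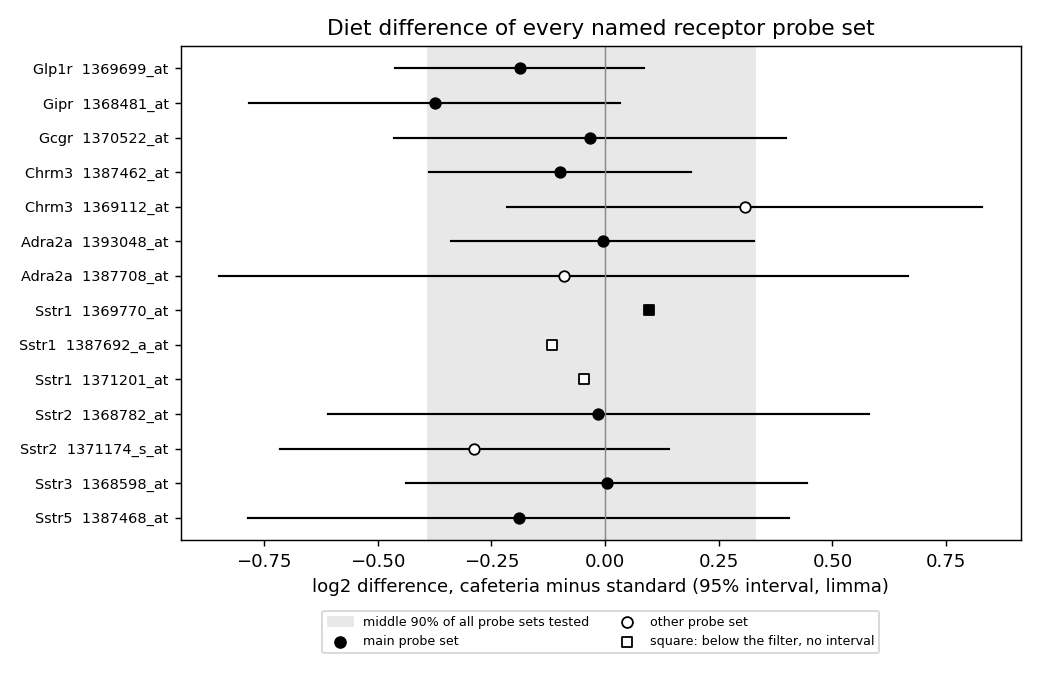
Log2 difference of cafeteria minus standard for the 14 receptor probe sets, with the 95% interval from limma; filled symbols are main probe sets, squares lie below the filter and have no interval, and the grey band spans the middle 90% of all probe sets tested (-0.39 to 0.33). Each interval drawn includes 0, and that of Gipr reaches least above it.

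Side by side, the tested members were mostly on the negative side, by little. Negative log2 differences were found for 7 of 8, with a median of -0.07, where 51.9% of all probe sets tested were negative and their median was -0.01. By coupling, the median was -0.19 for the 3 Gs receptors, Gipr, Glp1r and Gcgr. It was -0.10 for the only Gq receptor tested, and -0.01 for the 4 Gi receptors. The count rests on values near 0 and moved both ways. With median normalisation it was 4 of 8, with a median of -0.02 over the members and 0.03 over all probe sets tested. Without cafeteria replicate 3 it was 5 of 8, with a median of -0.02 over the members and 0.08 over the Gi receptors. Without standard replicate 4 it was also 5 of 8. It was 8 of 8 without cafeteria replicate 5 and with replicate number as a block. Relative to the beta cell markers it was 8 of 8 too, where the median over all probe sets tested was -0.04. These are descriptions of a short list and were not tested as a group.

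The members differed in how far arrays of 1 diet lay apart. The pooled standard deviation within groups, on the log2 scale, was 0.17 for Chrm3, 0.19 for Glp1r and 0.27 for Adra2a. It was 0.34 for Gcgr, 0.35 for Gipr and 0.37 for Sstr3. Sstr5 had 0.43 and Sstr2 0.50, wider than for 90.9% of the probe sets tested. The narrow intervals above are therefore those of Chrm3 and Glp1r and the wide ones those of Sstr2 and Sstr5.

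A single array gave most of the low receptor values. Cafeteria replicate 3 was the lowest of the 9 arrays for 5 of 8 tested members, namely Gipr, Chrm3, Sstr2, Sstr3 and Sstr5, and for 18.5% of all probe sets tested. It was the highest for 0 of 8 members, and for 17.1% of all probe sets. Standard replicate 3 was highest for 3 members. In cafeteria replicate 3 the summed signal of 5 delta and PP cell markers was 49607, the lowest of all arrays. Its sums for 6 duct cell markers (8356) and 8 Schwann and neuronal markers (5025) were also the lowest. Its sum for 10 beta cell markers (184481) lay inside the standard range of 159072 to 212820. For 8 alpha cell markers its sum (58558) was the lowest of the cafeteria arrays but inside the standard range of 52489 to 78088. Its acinar sum was the highest (10318), close to those of cafeteria replicate 1 (9979) and standard replicate 1 (9544). Whether the beta-actin ratio of cafeteria replicate 3 accounts for its low receptor signals was not tested. Without that array, the log2 differences of Gipr, Sstr5, Sstr2 and Sstr3 were -0.20, -0.02, 0.18 and 0.18, while that of Glp1r was -0.15.

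**Figure D3:**
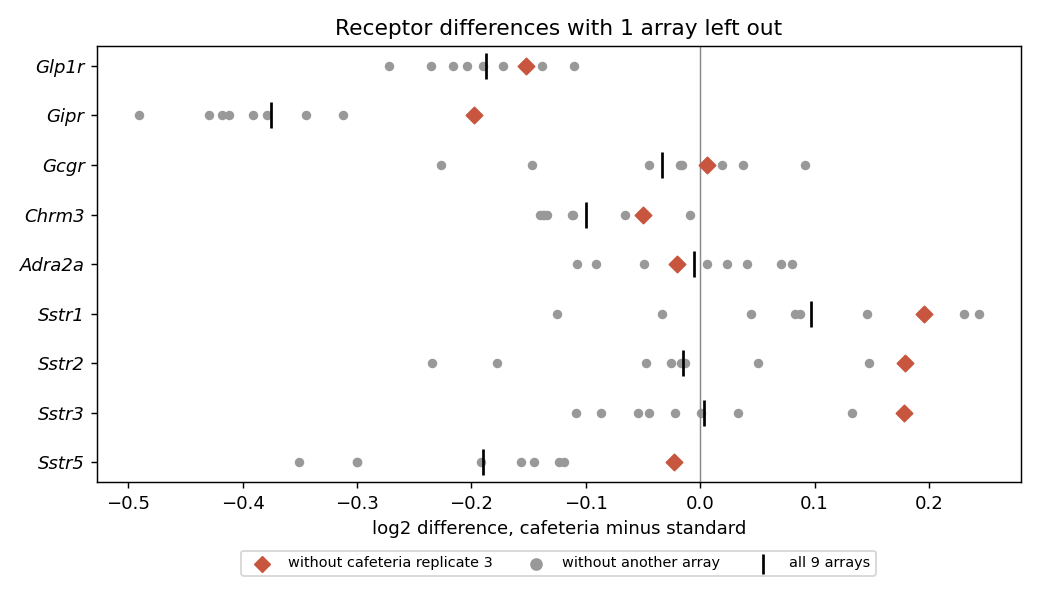
Log2 difference of cafeteria minus standard for 9 receptor genes with all arrays (black tick) and with each array left out in turn (points; red diamonds without cafeteria replicate 3). Gipr and Glp1r stay negative throughout, at -0.49 to -0.20 and -0.27 to -0.11. So do Chrm3, at -0.14 to -0.0092, and Sstr5, at -0.35 to -0.02. The points of Gcgr, Adra2a, Sstr1, Sstr2 and Sstr3 fall on both sides of 0.

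The proteins around the receptors were examined in 7 lists, from the ligands to the enzymes and factors that carry the signal, with 148 of 163 genes named and 103 tested. No gene of these lists passed limma's adjusted threshold, and 4 had an unadjusted p under 0.05 (3.88%). The share was 5.8% over all probe sets tested, a different unit. Counted by main probe set, as the lists are, 332 positive and 337 negative of all 10347 genes tested had such a p. The groups overlapped for each of the 103 genes, while 1.76% of all probe sets had groups that did not.

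The cAMP effectors included Crem, with the lowest unadjusted p in these lists. Of 23 genes 21 were tested, 10 with a positive and 11 with a negative log2 difference (median -0.01). Crem, a CREB family member whose short forms repress CRE-driven genes, had signals of 641, 912, 1222, 1318 and 1153 in cafeteria replicates 1 to 5. In standard replicates 1 to 4 it had 600.2, 616, 690 and 718. Thus 4 of 5 cafeteria arrays were above all standard arrays, and cafeteria replicate 1 lay among them. Its log2 difference was 0.62 ± 0.19 (SE), with a limma p of 0.00524 unadjusted and 0.839 adjusted. Sik1, a kinase that holds back the CREB coactivators, had 168, 119.8, 118.6, 109 and 89.3 in cafeteria replicates 1 to 5, against 215, 209, 262 and 118.6 in standard replicates 1 to 4. Only standard replicate 4 fell within the cafeteria span. Its log2 difference was -0.64 ± 0.24 (SE; limma adjusted p = 0.839), with the mean at 121 ± 28.9 in cafeteria (SD, n = 5) and 201 ± 60.03 in standard islets (SD, n = 4). Pkia, an inhibitor of protein kinase A, had 0.29 ± 0.16.

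Enzymes that make and break down cyclic AMP had 13 of 21 genes tested, 7 positive and 6 negative (median 0.07). The phosphodiesterases Pde4d and Pde8a had log2 differences of -0.28 ± 0.16 and 0.22 ± 0.13 (SE), and the adenylyl cyclase Adcy6 had -0.18 ± 0.12. These enzymes did not share a sign.

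Of 24 G protein subunits 18 were tested, 6 positive and 12 negative (median -0.07). Gnb5, a beta subunit that partners RGS proteins, had signals of 1975 to 2249 in cafeteria and 1455 to 1993 in standard islets, so the groups overlapped only at the edge. Its log2 difference was 0.31 ± 0.11 (SE; limma adjusted p = 0.839). Gng5, a gamma subunit, had -0.24 ± 0.12, and Gnai2, an alpha subunit of the inhibitory kind that the Gi receptors use, had -0.32 ± 0.18.

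Among other receptors known in islets, 17 of 47 were tested, 7 positive and 10 negative (median -0.08). Gprc5b, an orphan receptor, had a log2 difference of 0.26 ± 0.11 (SE; limma adjusted p = 0.839). Without standard replicate 2, its lowest array, the difference was 0.17 (limma unadjusted p = 0.137). With each array left out in turn it ran from 0.17 to 0.31. Casr, the calcium-sensing receptor, had -0.36 ± 0.17, and Gabbr2, a subunit of the GABA-B receptor, had -0.31 ± 0.15. Most of this list lay below the filter on low signals or had no named probe set, so it describes only its brighter part.

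Gq effectors had 19 of 24 genes tested, 6 positive and 13 negative (median -0.10). The diacylglycerol kinase Dgka had -0.35 ± 0.18 (SE), the protein kinase C form Prkce -0.24 ± 0.14 and the calcium release channel Itpr1 -0.19 ± 0.13. Genes of receptor desensitisation had 10 of 12 tested, 5 positive and 5 negative (median -0.05). Ramp1, which modifies receptor activity, had -0.50 ± 0.28, the sorting protein Gprasp1 0.18 ± 0.11 and the beta-arrestin Arrb2 -0.37 ± 0.24. None of these log2 differences passed limma's test (lowest adjusted p = 0.839 and 0.859 in these lists).

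On the ligand side 5 of 12 genes were tested, 3 positive and 2 negative (median 0.06). Gcg, which encodes glucagon and, by other processing, GLP-1, had a log2 difference of 0.06 ± 0.13 (SE), and Sst had -0.15 ± 0.16. The convertase Pcsk2 and the monoamine transporter Slc18a2 both had 0.12, with SE of 0.10 and 0.24. Over all 10347 genes tested by their main probe set the median was -0.0019, and 332 positive and 337 negative genes had an unadjusted p under 0.05.

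**Figure D4:**
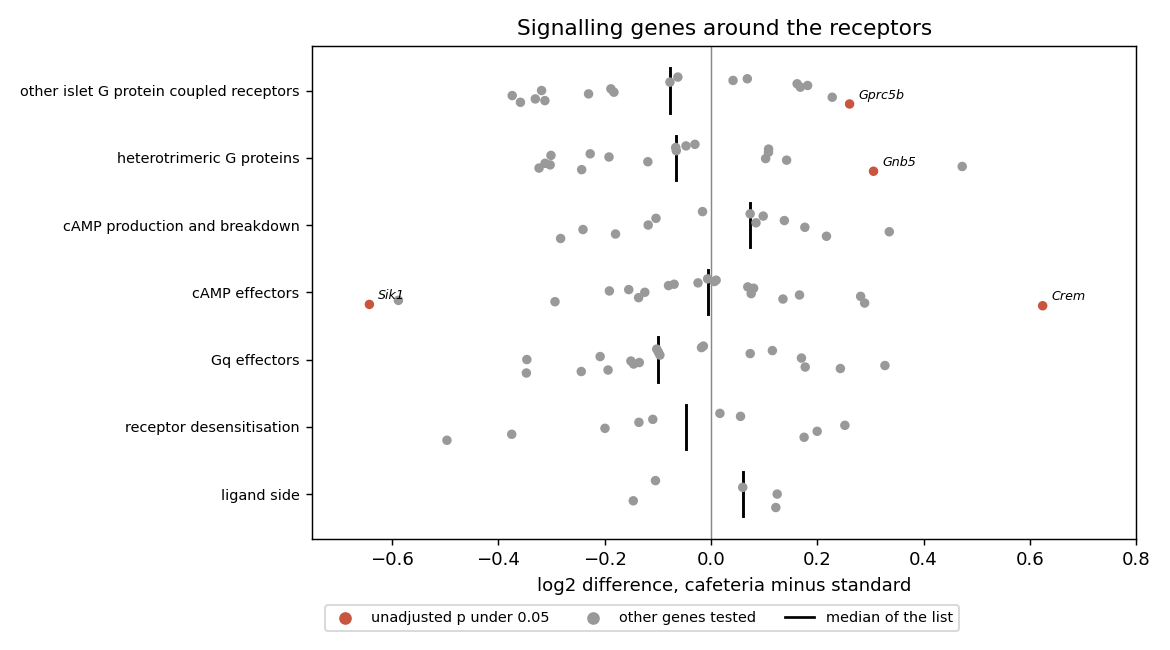
Log2 difference of cafeteria minus standard for the genes tested in 7 signalling lists, 1 point a gene and a black line at each list's median; red marks an unadjusted limma p under 0.05. Red points are Crem (0.62), Gnb5 (0.31), Gprc5b (0.26) and Sik1 (-0.64), and none passed after adjustment.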

How the data were processed

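Affymetrix Rat Genome 230 2.0 arrays were read as linear probe set intensity, deposited after MAS5 summarisation (named in the submitters' processing notes, without version or settings). Dropping 2% at either end, the mean signal was 500.0 on every array, and no further scaling was applied. The 57 control probe sets were left out. Names came from the platform annotation, updated by gene identifier (RefSeq, GRCr8).

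The fit was limma 3.58.1 in R 4.3.3 on log2(signal + 16), diet as the only term, with an intensity trend, over probe sets at or above the 40th percentile of mean log2 signal. The pseudocount understates changes of dim genes. The fit was tested on simulated data. Exact tests ran over all 126 splits of the arrays in Python 3.11.15; their smallest p for 1 split is 0.0079.

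Members and lists were chosen with earlier results of these data known. Named genes were the members, Gcg, Sst, the 3 lowest p-values of each pathway list and, for likeness, the 2 nearest array profiles of each tested member. Array data have no read depth; the number of arrays limits the precision.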

Additional observations from a re-analysis of the deposited data

Results flagged for a closer look

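Of 74 group values examined, 4 single arrays stood far from the rest of their group, about the share chance gives at 1 in 20; none is of the 10 receptors named at the start. On the log2(signal + 16) scale, Gprc5b was 10.46 in standard replicate 2, below its group. Gng5 was 11.15 in cafeteria replicate 3, below its group. Dgka was 9.25 in cafeteria replicate 2 and Sst 15.06 in standard replicate 1, both above their groups.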

How the results depend on the processing

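In 22 other settings of the fit, counting each array left out, no receptor was called; the lowest adjusted p was 0.549 and the lowest unadjusted p 0.0184, that of Gipr without cafeteria replicate 2. Glp1r, Gipr, Sstr5 and the main probe set of Chrm3 were negative in all of these. Among all probe sets, 0 to 2 were called with 1 array left out, the 2 without standard replicate 2, neither with a single gene symbol. Probe sets with an unadjusted p under 0.05 numbered 1080, and 582 with the replicate block, 1821 with array weights and 711 to 1674 with 1 array left out. With 1 array left out, the log2 difference ran from -0.23 to 0.091 for Gcgr, -0.11 to 0.080 for Adra2a, -0.12 to 0.24 for Sstr1, -0.23 to 0.18 for Sstr2, -0.11 to 0.18 for Sstr3, -0.24 to 0.0041 for Sst and -0.017 to 0.16 for Gcg. Signs also turned in other settings, and the cause was not tested. Median normalisation gave 0.010 for Gcgr, 0.039 for Adra2a and 0.027 for Sstr2; quantile normalisation gave 0.0091 for Sstr2 and -0.013 for Gcg. Array weights gave 0.11 for Gcgr, 0.11 for Sstr2, -0.016 for Sstr3 and -0.027 for Slc18a2. Relative to the beta cell markers Sstr3 had -0.030 and Gipr -0.41. Same-numbered arrays did not deviate together (correlations of -0.38 to 0.03). So few arrays cannot show that they were unpaired, and the main fit did not pair them. With the replicate block, Sstr1 had -0.12, Sstr3 -0.022 and Gipr -0.34, and no call changed. The beta-actin covariate (Sstr2 0.026, Gipr -0.33) and leaving out both arrays of highest beta-actin ratio (Gcgr 0.058, Sstr2 0.24, Sst 0.057, Gipr -0.20) were chosen after seeing the data. Other probe sets gave 0.31 for Chrm3, and -0.12 and -0.046 for Sstr1; Gipr and Glp1r have no other. Gipr minus Glp1r ran from -0.32 to -0.05 with 1 array left out, and was -0.21 with the replicate block.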

Other observations

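Likeness of array profiles was measured as the root mean square difference between standardised log2 signals over the 9 arrays, among 10346 other genes, where a smaller value means more alike and the smallest of so many is low by selection. The nearest genes were Blcap (0.368) and C1h19orf47 (0.386) for Glp1r, Bbs2 (0.259) and Cyp4b1 (0.288) for Gipr, and Klhdc8a (0.276) and Pgap3 (0.358) for Gcgr. They were Urod (0.313) and Crp (0.425) for Chrm3, and Abitram (0.328) and Myo10 (0.343) for Adra2a. For the somatostatin receptors they were Ppp1r1a (0.376) and Nudt14 (0.415) for Sstr2, Ttll5 (0.283) and Tnrc6b (0.328) for Sstr3, and Syt3 (0.329) and Sncg (0.364) for Sstr5. Among the members themselves the nearest pair was Gipr and Sstr5 (0.634), both lowest in cafeteria replicate 3, and Gipr was also the nearest member to Glp1r (1.01), Sstr2 (1.07) and Sstr3 (0.744).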
